A study of Mus musculus with 2 samples.

Results

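Cells that carried more than 100000 UMIs were examined in both libraries of sorted hepatocytes. A UMI stands for 1 counted molecule. The cells were chosen by their UMI total and by a share of at most 5% of UMIs from mitochondrial genes, and 1599 of 39559 barcodes met both limits. They were 360 of 23220 barcodes in the Tom- library and 1239 of 16339 in the Tom+ library. The study's own filter removes these high-UMI cells. They were compared with cells of 25000 to 50000 UMIs of the same library under the same mitochondrial limit. These are called comparison cells here and numbered 7101 (Tom-) and 5261 (Tom+).

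Hepatocytes differ in size and in ploidy. Many of them in the adult mouse are polyploid, with more sets of chromosomes than a diploid cell, in 1 nucleus or in a pair of nuclei, and such cells hold more RNA. A droplet or a fixed clump can also bring cells together under 1 barcode. Hepatocytes are ordered along the lobule, with urea and glucose synthesis strongest near the portal tract, as marked by Cyp2f2 and Sds, and glutamine synthesis confined to cells around the central vein, as marked by Glul. A hepatocyte normally carries 1 of these programmes.

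The livers came from male p16-Tom mice (p16-CreERT2 with R26-CAG-LSL-tdTomato-WPRE, heterozygous, C57BL/6) given CCl4 for 4 weeks, with tamoxifen. In these mice CreERT2 made under p16 control permanently switches on tdTomato when tamoxifen is present, and both groups share these alleles and treatments. The tissue was fixed in formaldehyde before dissociation, and particles positive for a nuclear and a mitochondrial dye were sorted as Tom- or Tom+. Each group is 1 library, and the number of mice behind it is not stated. Most differences below are therefore between cells of a library, and values of the 2 libraries set side by side compare those libraries only. Neither has a replicate or a p-value, and the intervals are 95% intervals for counting error only.

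By the choice of cells, the UMI totals are a description. The median was 114725 UMIs (100067 to 318254) in Tom- and 125224 (100111 to 446120) in Tom+ high-UMI cells, against 35256 and 35724 in comparison cells. The highest total just below the limit was 99933 in Tom- and 99975 in Tom+. In the 10000 UMIs below the limit there were 197 Tom- and 402 Tom+ cells, and in the 10000 above it 128 and 309. High-UMI cells were 1.55% (1.40 to 1.72) of Tom- barcodes and 7.58% (7.18 to 8.00) of Tom+ barcodes, and held 6.66% and 24.0% of all UMIs. The libraries differed in depth, with median totals of 23517 and 35007 UMIs per barcode. With the limit set in both libraries at 4.25 times the library's median, 148861 UMIs in Tom+, the shares were 1.55% and 1.87% (1.66 to 2.09). Detected genes had a median of 8277 (Tom-) and 8484 (Tom+), and 1 and 16 high-UMI cells had more than 10000 genes. The share of mitochondrial UMIs was lower than in comparison cells, with medians of 1.01% against 1.29% in Tom- and 1.32% against 1.52% in Tom+, and no cell above 100000 UMIs was lost to the 5% limit. Of the 503 barcode sequences present in both libraries, 6 were among the Tom- and 39 among the Tom+ high-UMI cells.

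**Figure D1:**
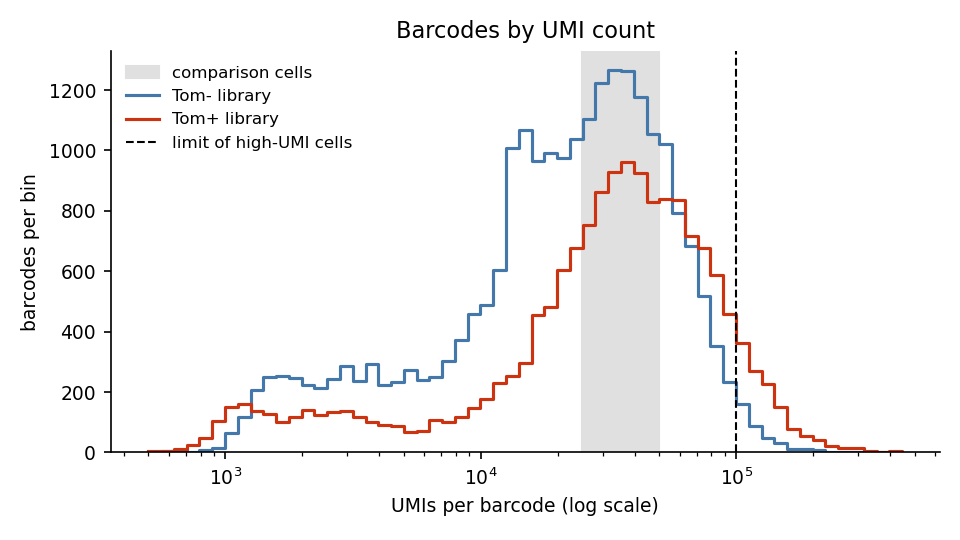
Number of barcodes per bin of UMIs per barcode (log scale) in the Tom- and Tom+ libraries, with the comparison cells shaded and the limit of 100000 UMIs dashed. The limit cuts the upper tail of both distributions, beyond which lie 360 Tom- and 1239 Tom+ barcodes.

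The high-UMI cells carried the markers of hepatocytes. Alb, which encodes serum albumin, was at 127047 CPM (UMIs scaled to the summed total of the cells) in Tom- high-UMI cells against 118564 CPM in comparison cells. The corresponding levels in Tom+ were 118467 and 108635 CPM. The summed level of 12 hepatocyte genes was log2 0.04 above comparison cells in Tom- and 0.07 in Tom+. Within that list Apoa1, the main protein of high-density lipoprotein, was lower, at 1148 against 2640 CPM in Tom- and 2363 against 3795 CPM in Tom+. Apoh, another plasma protein gene, was at 23.2 against 42.5 CPM and at 38.9 against 52.6 CPM. The transcription factor gene Hnf4a was at 665 against 630 CPM and at 599 against 596 CPM. Of 20 plasma protein genes, none was 1.5-fold higher, 2 (Apoa1 and Apoh) were 1.5-fold lower in Tom- and 1 (Apoa1) in Tom+. Among all genes compared, 0.0763% in Tom- and 0.289% in Tom+ were higher by this factor, and 8.96% and 4.58% were lower.

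Genes of other liver cell types were at low levels in both kinds of cells. Summed over all high-UMI cells, the lists of macrophages, other leukocytes, endothelium and stroma were higher than in comparison cells, for stroma only slightly in Tom-. The summed macrophage list of 12 genes was at 633 CPM (626 to 641) in Tom- high-UMI cells and 495 CPM in comparison cells, a log2 ratio of 0.36 (0.34 to 0.37). In Tom+ it was at 520 CPM (516 to 523) against 384 CPM, a log2 ratio of 0.44 (0.42 to 0.45). Cd5l, a protein secreted by the resident macrophages of the liver, gave 48.3% and 44.9% of the list's UMIs in comparison cells, and without it the ratios were 0.17 and 0.27. None of 8 tested genes of the list was past 1.5-fold in Tom-, and 3 of 7 were in Tom+ (Vsig4, Cd5l and C1qa), beside 0.289% of all tested genes there. Vsig4, at 10.4 against 6.66 CPM in Tom+, reached the minimum of 10 CPM for this comparison in high-UMI cells alone. Against all other cells within the study's limits on UMIs, genes and mitochondrial share, the Tom- ratio of the list was 0.06. These cells include the shallow barcodes rich in these genes. No cluster was left out for few genes or for Ptprc, Dcn or Pecam1, a step that the study added. Among Tom- cells above 150000 UMIs the ratio of the list was 0.09.

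Members of the macrophage list differed among themselves. Cd5l was at 345 against 239 CPM in Tom- and 265 against 172 CPM in Tom+. Csf1r, the receptor that macrophages need for survival, was at 27.2 against 18.5 CPM and at 21.2 against 14.7 CPM. Without cells holding 5 or more UMIs of another lineage its Tom- log2 ratio turned from 0.56 to -0.11. The cells were left out by lists that include Csf1r itself, which kept 60 of 360 high-UMI and 2823 of 7101 comparison cells. Clec4f, a lectin particular to liver macrophages in the mouse, was at 62.1 against 60.5 CPM in Tom- and 60.4 against 46.2 CPM in Tom+. C1qb, a subunit of complement C1q, did not share the difference, with log2 ratios of -0.04 and -0.02, whereas C1qa, another subunit, had 0.44 and 0.65. C1qc, the remaining subunit, was lower, at 1.54 against 4.47 CPM in Tom-, a log2 ratio of -1.53 (-1.90 to -1.19), and at 2.92 against 4.46 CPM in Tom+, a log2 ratio of -0.61 (-0.77 to -0.45), levels under the minimum of 10 CPM.

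The endothelial list of 11 genes was at 216 against 188 CPM in Tom-, a log2 ratio of 0.20 (0.16 to 0.23), and at 187 against 140 CPM in Tom+, a log2 ratio of 0.42 (0.40 to 0.44). Just below the limit, cells of 75000 to 100000 UMIs had this list at 217 CPM in Tom-, the level of high-UMI cells, and at 166 CPM in Tom+. Stab2, a scavenger receptor of liver sinusoids, was at 43.9 against 32.7 CPM in Tom- and 34.5 against 23.3 CPM in Tom+. Pecam1 was at 16.3 against 15.2 CPM, where the interval of the log2 ratio included 0 (-0.02 to 0.21), and at 15.7 against 12.1 CPM in Tom+. Flt4, a receptor of vascular growth factors, had log2 ratios of -0.24 (-0.39 to -0.10) in Tom- and 0.16 (0.06 to 0.25) in Tom+. Oit3, under 10 CPM in both, had -0.89 (-1.13 to -0.65) and -0.07 (-0.20 to 0.06). The stellate and fibroblast list of 12 genes had 161.5 against 153 CPM and a log2 ratio of 0.08 (0.04 to 0.12) in Tom-, and 202 against 142 CPM and a log2 ratio of 0.51 (0.49 to 0.53) in Tom+. Its collagen genes Col1a1, Col1a2 and Col3a1 had log2 ratios of 0.21, 0.17 and -0.01 in Tom- and 0.63, 0.64 and 0.57 in Tom+. Dcn, which encodes a small collagen-binding proteoglycan, was at 29.0 against 24.5 CPM and at 35.6 against 23.4 CPM. Ecm1, a matrix protein gene of the same list, was at 15.2 against 18.95 CPM in Tom-, a log2 ratio of -0.32 (-0.44 to -0.20), and had 0.02 (-0.04 to 0.09) in Tom+. Against all other cells within the study's limits, the Tom- ratios turned to -0.07 (endothelial) and -0.20 (stellate and fibroblast).

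Other lineages were at lower levels. The lymphoid and myeloid list was at 17.1 against 13.4 CPM in Tom-, a log2 ratio of 0.35 (0.24 to 0.46), and at 12.5 against 10.4 CPM in Tom+, a log2 ratio of 0.26 (0.18 to 0.35), nearly all from Ptprc (8.55 and 5.87 CPM in high-UMI cells), Cd52 and Coro1a. Without Ptprc the log2 ratios were 0.17 (0.01 to 0.33) and 0.18 (0.06 to 0.30). The ratios of the whole list turned to -0.46 and -0.18 without cells holding 5 or more UMIs of another lineage. That choice of cells rests on this list among others. In Tom- the ratio of the whole list turned to -0.07 against all other cells within the study's limits. The lymphocyte genes Cd3g, Nkg7 and Trbc2 had no UMI among the 45354875 UMIs of Tom- high-UMI cells, which allows a level of up to 0.0661 CPM each (3 counts), whereas Cd3e had 5, Ms4a1 7 and Cd79a 27 UMIs there. In Tom+ high-UMI cells, with a larger total of 171613027 UMIs, Cd3g and Trbc2 had 1 UMI each and Nkg7 12. With such counts and unequal totals the libraries cannot be told apart in these genes. The bile duct list was lower, at 18.9 against 22.3 CPM and 16.0 against 18.3 CPM, and the difference lay in Pkhd1, since the list without it had log2 ratios of 0.24 and 0.20. The erythroid list was at 12.1 against 21.3 CPM and at 14.6 against 16.6 CPM. Without Alas2, which gave 45.9% and 66.3% of its UMIs in comparison cells, its log2 ratios were -1.74 and -0.72. In Tom+ the full list's ratio of -0.18 turned to 0.23 against cells of 50000 to 75000 UMIs. Against all other cells within the study's limits it was 0.04. It was 0.05 without cells of 5 or more other-lineage UMIs and 0.20 without cells over the 90th percentile of another lineage.

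**Figure D2:**
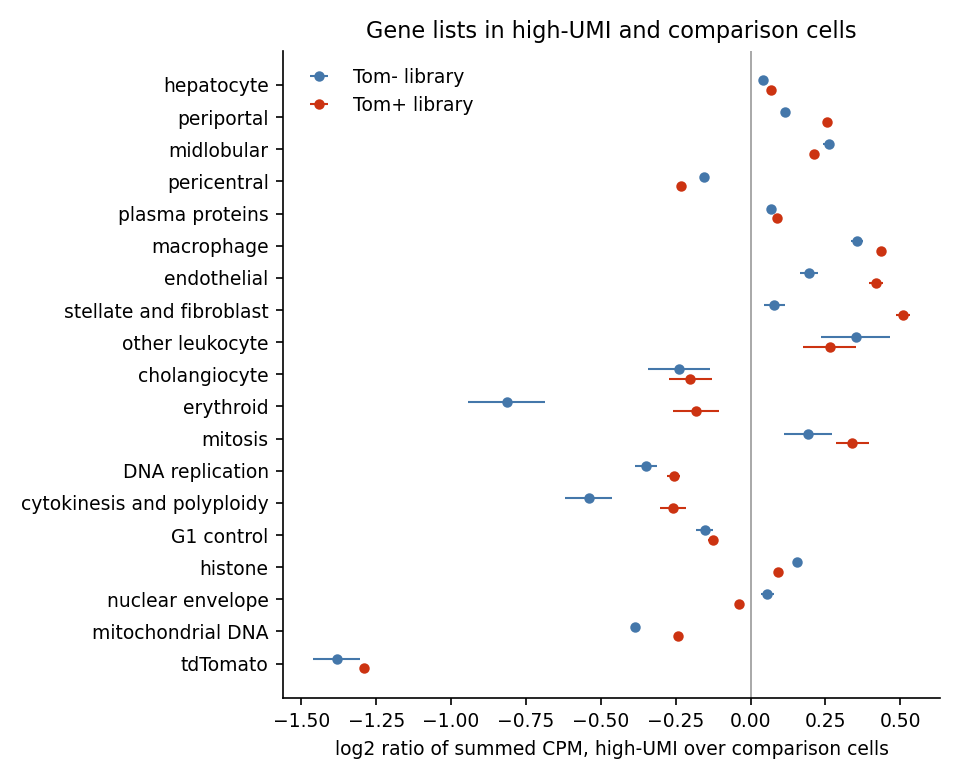
Log2 ratio of the summed CPM of each gene list in high-UMI cells over comparison cells (x axis), in the Tom- and Tom+ libraries, with 95% counting intervals as bars. Macrophage, endothelial and mitosis lists lie to the right of 0 in both libraries, and the bars of the mitosis list lie around 0.19 and 0.34.

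To compare single cells at 1 depth, each cell was thinned at random to 25000 UMIs. The other-lineage genes were then spread over many high-UMI cells in small amounts. The median number of macrophage list UMIs was 9 in Tom- high-UMI cells and 5 in comparison cells, and 6 and 4 in Tom+. At least 5 such UMIs were found in 73.1% (68.2 to 77.6) of Tom- high-UMI cells and 51.0% (49.8 to 52.1) of comparison cells, and in 56.3% (53.5 to 59.1) and 41.5% (40.2 to 42.8) of Tom+ cells. Above the comparison cells' 90th percentile lay 54 of 360 Tom- high-UMI cells (11.5% to 19.1%) and 15.3% (13.4 to 17.5) of Tom+ high-UMI cells, against 9.97% (9.28 to 10.7) and 9.52% (8.74 to 10.3) of comparison cells. Above the comparison cells' 99th percentile, 125 macrophage UMIs in Tom- and 100 in Tom+, lay 0.278% (0.0070 to 1.54) of Tom- and 0.404% (0.131 to 0.939) of Tom+ high-UMI cells, against 0.986% (0.769 to 1.24) and 0.988% (0.739 to 1.29) of comparison cells. At this higher limit the intervals of high-UMI and comparison cells overlap in both libraries. For each list, the comparison cells' shares above their own percentiles were set by the choice of limit, apart from ties.

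At least 5 endothelial UMIs were present in 44.7% against 21.1% of Tom- cells and in 36.2% against 14.3% of Tom+ cells. Above the comparison cells' 90th percentile for this list lay 8.33% (5.69 to 11.7) against 9.89% (9.20 to 10.6) in Tom- and 20.7% (18.5 to 23.1) against 9.54% (8.76 to 10.4) in Tom+. Above the 99th percentile lay 0 of 360 Tom- high-UMI cells, which allows up to 1.02% (exact interval), against 0.958% (0.744 to 1.21) of comparison cells. In Tom+ 0.0807% (0.0020 to 0.449) lay above it against 0.893% (0.657 to 1.19), intervals that do not overlap. Stellate and fibroblast genes reached 5 UMIs in 24.7% against 15.04% of Tom- cells and in 30.3% against 14.5% of Tom+ cells. Above the 99th percentile of that list lay 0 of 360 against 1.00% of Tom- cells and 0.404% (0.131 to 0.939) against 0.969% (0.723 to 1.27) of Tom+ cells. Before thinning, macrophage and other leukocyte genes together took at most 0.454% of a cell's UMIs in Tom- and 0.660% in Tom+.

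**Figure D3:**
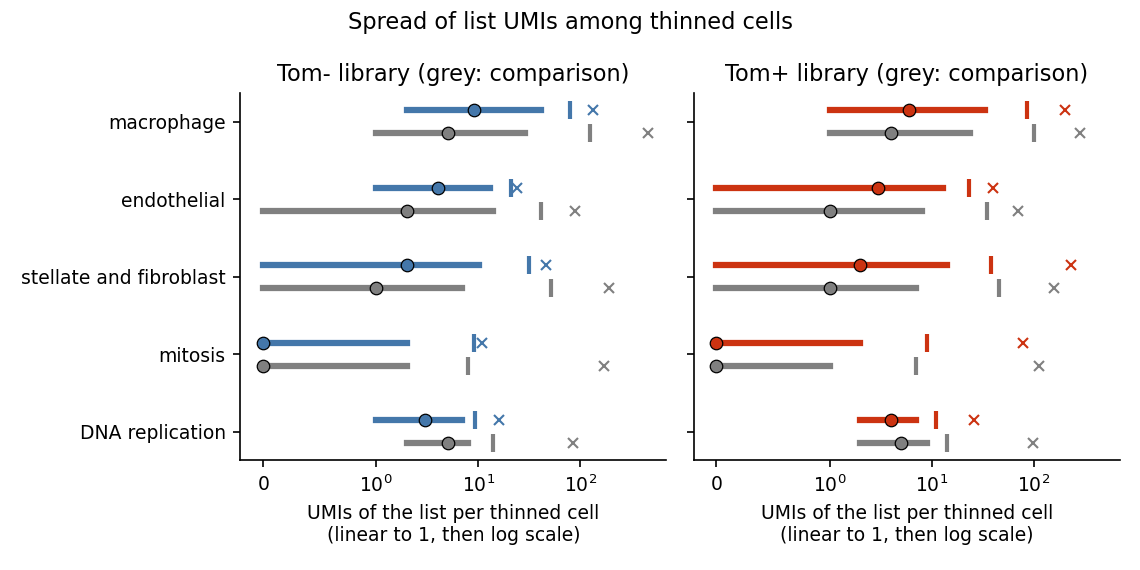
UMIs of each list per cell after thinning to 25000 UMIs (x axis, linear to 1 and then logarithmic), coloured for high-UMI cells and grey for comparison cells; bars run from the 10th to the 90th percentile, circles mark the median, ticks the 99th percentile and crosses the highest cell. For macrophages the median is higher in high-UMI cells (9 against 5 in Tom- and 6 against 4 in Tom+). The highest cell of a group depends on the number of cells in it, which is 360 against 7101 in Tom- and 1239 against 5261 in Tom+.

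Hepatocyte RNA was also present in barcodes rich in leukocyte genes, whose cells were not identified further. Barcodes with at least 2% of UMIs from leukocyte genes, 133 in Tom- and 61 in Tom+ with median totals of 4849 and 3793 UMIs, still held Alb at 60805 and 46349 CPM. The part of free or attached RNA in the macrophage, endothelial and stromal counts of high-UMI cells was not tested.

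Few genes were higher in high-UMI cells and more were lower. Of 7868 genes tested in Tom-, 6 (0.0763%) had a CPM in high-UMI cells at least 1.5 times that in comparison cells, and 705 (8.96%) were lower by the same factor. Of 7945 genes tested in Tom+, 23 were higher (0.289%) and 364 lower (4.58%). None was 2-fold higher in either library, and 203 and 49 were 2-fold lower. The median log2 ratio over tested genes was -0.05 in Tom- and -0.06 in Tom+. A gene was tested at 10 CPM in either sum, and 199 of the lower genes in Tom- and 95 in Tom+ reached it in comparison cells alone. In the other direction, 1 of the 6 higher genes in Tom- and 8 of the 23 in Tom+ reached it in high-UMI cells alone, so that they could be compared only because they were high there. Without barcodes present in both libraries 6 and 29 genes were higher and 715 and 367 lower. With comparison cells of 50000 to 75000 UMIs the numbers of lower genes were 85 and 62 and those of higher genes 0 and 3. Against all other cells within the study's limits, which include barcodes rich in other-lineage genes, no tested gene was 1.5-fold higher in either library.

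The genes ranked highest over both libraries are known mainly from cells other than hepatocytes. Wfdc17, a secreted protein gene expressed by macrophages, was at 19.7 against 11.5 CPM in Tom- and at 14.1 against 8.88 CPM in Tom+, log2 ratios of 0.77 (0.66 to 0.88) and 0.67 (0.58 to 0.76). Clec1b, a lectin receptor of liver macrophages, had 0.61 and 0.59, and these were the 2 tested genes past 1.5-fold in both libraries, Wfdc17 in Tom+ having passed the minimum of 10 CPM in high-UMI cells alone. Itgal, an integrin gene of leukocytes, had 0.66 and 0.72, but was not tested in Tom+, where it lay under this minimum, and passed it in Tom- in high-UMI cells alone. Msn, which ties the membrane to actin in blood and endothelial cells, had 0.58 and 0.65. Sparc, a matrix-associated protein of endothelial and stromal cells, was at 101 against 68.9 CPM and at 79.8 against 48.7 CPM. Aif1 (0.67 and 0.54), Csf1r (0.56 and 0.53), Cd5l (0.53 and 0.62) and Adgre5, an adhesion receptor of leukocytes (0.52 and 0.54), completed the first 8. Like Wfdc17, Aif1 and Adgre5 passed the minimum of 10 CPM in Tom+ in high-UMI cells alone. Named after their values were seen, the other genes past 1.5-fold in Tom- were Aif1, Itgal, the receptor kinase gene Axl and Fundc2, which encodes a mitochondrial outer membrane protein. In Tom+ the higher genes, chosen for naming in the same way, also held Col1a1, Col1a2, Dcn, Hand2, Colec10 and Colec11, which are genes of stroma, with log2 ratios between 0.59 and 0.64 there and between 0.01 and 0.25 in Tom-. Of these, Hand2 (10.06 against 6.59 CPM in Tom+) and Colec10 (13.8 against 9.16 CPM) passed the minimum in high-UMI cells alone.

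For some genes the number of UMIs per cell was much the same in high-UMI and comparison cells. Total UMIs per cell were 3.51 times those of comparison cells in Tom- and 3.82 times in Tom+, and the median tested gene had 3.39 and 3.65 times as many UMIs per cell. In Tom- 80 tested genes (1.02%), and in Tom+ 7 (0.0881%), had at most 1.5 times as many. The lower genes had a median of 29.2 CPM in Tom- and 28.9 CPM in Tom+ comparison cells, against 36.9 and 37.9 CPM for all tested genes. Of 7765 genes tested in both libraries, 290 were lower in both, which is 41.1% of the 705 lower genes in Tom- and 79.7% of the 364 in Tom+.

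The gene ranked lowest over both libraries was Isoc2a (ENSMUSG00000086784, mm10 chromosome 7, 4877153 to 4896973), at 3.15 against 11.8 CPM in Tom- and 6.99 against 20.1 CPM in Tom+. Per cell this was 0.397 against 0.423 UMIs in Tom- and 0.968 against 0.731 UMIs in Tom+. Pym1, which helps to recycle the exon junction complex, had log2 ratios of -1.71 and -1.46. Hmgn1, a nucleosome-binding protein gene, had -1.80 and -1.43. Cyp2d10, a cytochrome P450 gene in a family of close copies whose probes may be shared, was at 19.6 against 72.2 CPM and at 45.4 against 122 CPM, which in Tom- was 2.47 against 2.59 UMIs per cell. Atp5a1, a subunit of the ATP synthase, had -1.67 and -1.36, and Brap, a ubiquitin ligase gene, -1.62 and -1.28.

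mt-Co1, a mitochondrially encoded subunit of cytochrome c oxidase, was among the 8 lowest, at 169 against 559 CPM in Tom- and 444 against 1169 CPM in Tom+. All 13 mitochondrial protein genes were tested, and 6 in Tom- and 3 in Tom+ were at least 1.5-fold lower, as were 8.96% and 4.58% of all tested genes. mt-Nd4l (-1.64 and -1.05), mt-Atp6 (-1.47 and -0.88) and mt-Atp8 (-1.05 and -0.42) lay on the low side. mt-Cytb (0.12 and 0.22) and mt-Nd2 (0.13 and 0.23) lay above 0 in both libraries. The summed mitochondrial level was 10372 against 13544 CPM in Tom- and 13679 against 16162 CPM in Tom+. Of 24 nuclear genes of the respiratory chain, 8 in Tom- and 5 in Tom+ were 1.5-fold lower, beside the same 8.96% and 4.58% of all tested genes, and the list's sums were alike (3768 against 3804 CPM and 3933 against 3929 CPM).

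The tdTomato reporter, by which the groups were sorted, was also among the 8 lowest. It was at 30.8 against 80.2 CPM in Tom-, a log2 ratio of -1.38 (-1.46 to -1.30), and at 378 against 925 CPM in Tom+, a log2 ratio of -1.29 (-1.30 to -1.28). Per cell, Tom+ high-UMI cells had a median of 47 tdTomato UMIs (3 to 245) and comparison cells 30 (0 to 173). In Tom- the medians were 3 (0 to 21) and 2 (0 to 74). Among high-UMI cells the Tom+ library kept a log2 ratio of 3.62 (3.54 to 3.70) over Tom-, against 3.53 (3.51 to 3.55) among comparison cells. The Tom- level in high-UMI cells lay below that of the leukocyte-rich barcodes of the same library (63.9 CPM), and the Tom+ level above it (295 CPM). The custom LINE-1 feature L1Md_A, a repeat element rather than a gene, was at 2337 against 2899 CPM and at 2636 against 3480 CPM.

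Several of these differences were also seen between steps of depth below the limit. In Tom-, mt-Co1 had 16.6 UMIs per cell at 10000 to 25000 UMIs, 20.1 at 25000 to 50000, 18.0 at 50000 to 75000, 18.0 at 75000 to 100000, and 20.0 and 24.0 in the lower and upper step above 100000. Isoc2a per cell stayed between 0.345 and 0.475 UMIs over these 6 steps. In Tom+ both climbed over the same steps, mt-Co1 from 25.8 through 42.4, 49.2, 54.7 and 56.2 to 66.7 UMIs per cell and Isoc2a from 0.490 to 1.08. tdTomato in Tom+ went from 33.6 UMIs per cell in comparison cells through 40.6, 44.9 and 46.8 to 57.9 in the uppermost step, while its CPM went from 925 through 665, 525 and 422 to 349. Cd5l took the other course, from 8.59 UMIs per cell in Tom- comparison cells to 15.5, 24.6, 38.6 and 53.5 in the following steps. Alb went from 4257 to 7410, 10766, 14081 and 19954 UMIs per cell in the same steps.

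**Figure D4:**
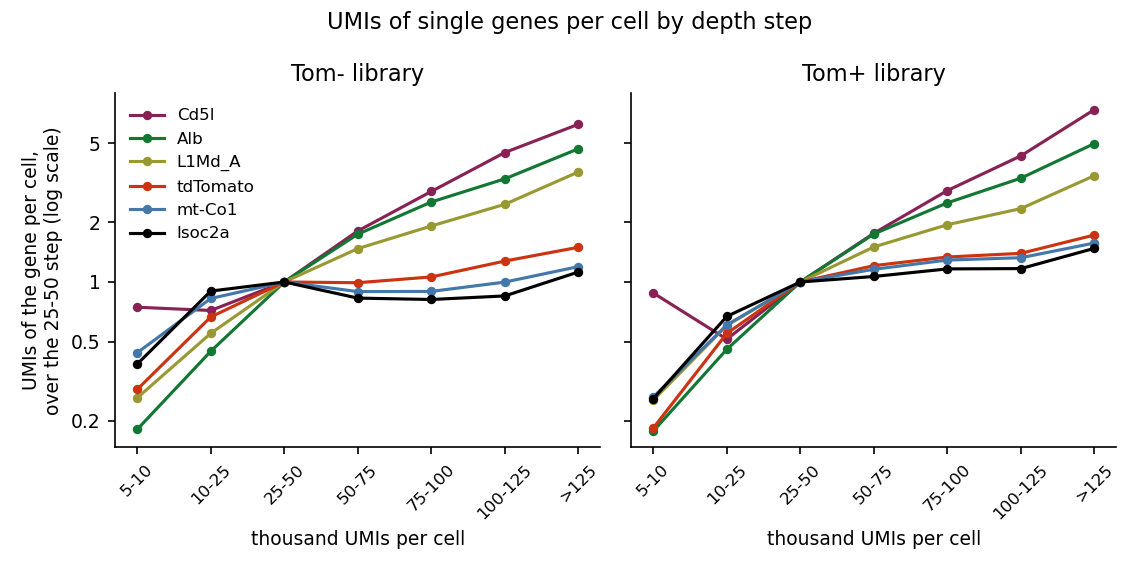
UMIs of single genes per cell, divided by the value in cells of 25000 to 50000 UMIs (y axis, log scale), over 7 steps of UMIs per cell (x axis), in each library; points are means over all cells of a step. Above 25000 UMIs, Cd5l and Alb climb with depth in both libraries, whereas mt-Co1 lies between 18.0 and 24.0 UMIs per cell in Tom- and climbs from 42.4 to 66.7 in Tom+.

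Along the lobule, more of the high-UMI cells had middle values than comparison cells did. The zone axis was the log2 ratio of pericentral (zone 3) to periportal (zone 1) list UMIs, each plus 1, in cells thinned to 25000 UMIs. Its SD over cells was 1.65 in Tom- high-UMI cells against 2.28 in comparison cells, and 2.17 against 2.42 in Tom+. The median was -2.89 against -3.42 in Tom- and -1.44 against -0.65 in Tom+. Between the quartiles of the comparison cells, which hold 50.0% of those cells, lay 73.3% (68.4 to 77.8) of Tom- and 65.9% (63.1 to 68.5) of Tom+ high-UMI cells. Fewer lay at the pericentral end. Above the comparison cells' 90th percentile lay 1.39% (0.452 to 3.21) of Tom- and 4.28% (3.22 to 5.56) of Tom+ high-UMI cells. Below the 10th percentile, the periportal end, lay 8.61% (5.93 to 12.0) and 13.6% (11.8 to 15.7). In cells of 50000 to 75000 UMIs the SD was 2.21 and 2.44, and 50.5% and 52.1% lay in the middle, values close to those of comparison cells.

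**Figure D5:**
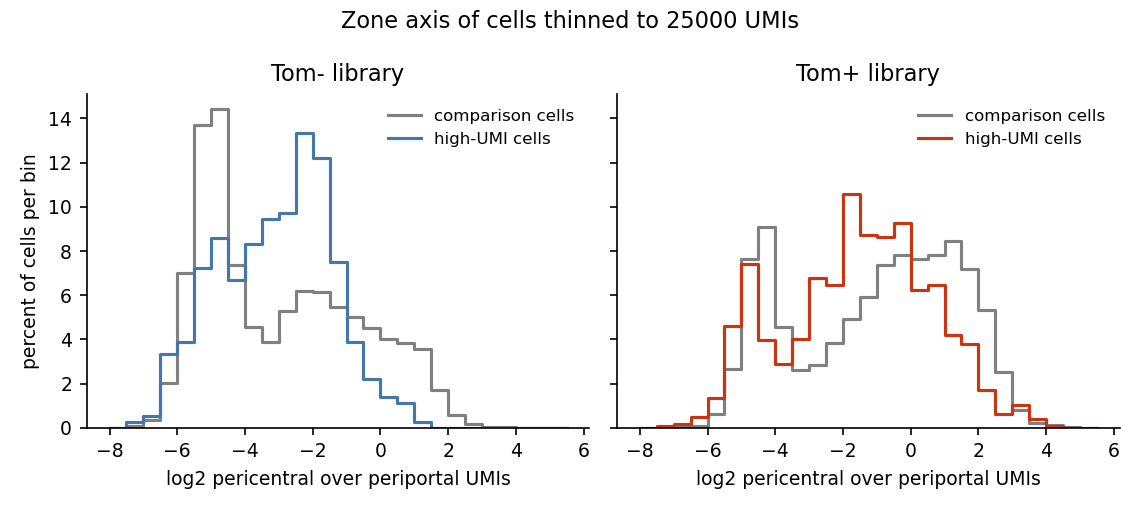
Percent of cells per bin of the zone axis (x axis, log2 of pericentral over periportal list UMIs at 25000 UMIs per cell) for high-UMI cells (coloured) and comparison cells (grey) in each library. High-UMI cells spread less than comparison cells, with 73.3% (Tom-) and 65.9% (Tom+) between the comparison quartiles.

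Pericentral genes were lower as a list of 12, with 2299 against 2560 CPM in Tom- and 4207 against 4946 CPM in Tom+. The Tom- list was at 2087.6 CPM in the lower step above 100000 UMIs. In the upper step it was at 2600.2 CPM, above comparison cells, so that the lower sum in Tom- came from the lower step. Both steps lay below comparison cells in Tom+ (4241 and 4183.8 CPM). Of single genes, 4 of 11 tested in Tom- and 4 of 12 in Tom+ were 1.5-fold lower, against 8.96% and 4.58% of all tested genes. Glul, which encodes glutamine synthetase (ENSMUSG00000026473, mm10 chromosome 1, 153899944 to 153909723), was at 13.2 against 39.0 CPM in Tom-, a log2 ratio of -1.56 (-1.68 to -1.44). In Tom+ it was at 61.5 against 128 CPM, a log2 ratio of -1.06 (-1.09 to -1.03). Cells of 75000 to 100000 UMIs had Glul at 14.4 CPM in Tom- and 85.7 CPM in Tom+. Oat, an ornithine-metabolising enzyme found with Glul, had -1.07 and -0.89, and Slc1a2, a glutamate transporter, -0.63 and -0.88. Cyp2e1, the P450 enzyme that activates CCl4, was at 1241 against 1168 CPM in Tom- and 1945 against 2130 CPM in Tom+. With comparison cells weighted to the zone makeup of the high-UMI cells, the pericentral list turned to log2 0.04 and 0.05, where the weights rest on the same genes.

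Periportal genes were higher as a list of 10, with 14689 against 13561 CPM in Tom- and 10884 against 9109 CPM in Tom+, and none was past 1.5-fold. Cyp2f2, a P450 gene of periportal hepatocytes (ENSMUSG00000052974, mm10 chromosome 7, 27119909 to 27133660), was at 202 against 166 CPM and at 152 against 109 CPM, log2 ratios of 0.28 (0.25 to 0.31) and 0.48 (0.45 to 0.50). Ass1, an enzyme of the urea cycle, had 0.20 and 0.48. Sds, which degrades serine, was at 1271 against 1330 CPM in Tom- and 916 against 805 CPM in Tom+. The midlobular genes Hamp (0.25 and 0.24), which encodes the iron hormone hepcidin, and Igfbp2 (0.26 and 0.20), a binding protein of insulin-like growth factors, were higher in both libraries. Just below the limit, at 75000 to 100000 UMIs, Hamp was at 137 CPM in Tom- and 106 CPM in Tom+, beside 135 and 120 CPM in high-UMI cells. Igfbp2 was at 502 and 463 CPM there, beside 515 and 472 CPM in high-UMI cells.

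The spread between cells was smaller among high-UMI cells for Sds, a single zone gene, as well. In Tom-, Sds at 25000 UMIs had a median of 30 UMIs with 5th and 95th percentiles of 5 and 61, against 29 with 2 and 83 in comparison cells. In Tom+, Sds had a median of 16 UMIs (1 to 69 over the same percentiles) in high-UMI cells and 5 (1 to 78) in comparison cells. Other zone genes differed, since in Tom+ the SD of Cyp2f2 was 6.42 UMIs against 5.72 and that of Ass1 68.5 against 57.8. Over genes with a mean of at least 2 UMIs at that depth, the variance beyond counting noise, divided by the squared mean, was smaller in high-UMI cells for 1495 of 1669 genes in Tom- (89.6%) and 1640 of 1779 in Tom+ (92.2%). The median ratio of that measure was 0.398 and 0.551. Genes are not independent replicates, and this measure was added after the data had been seen.

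Co-expression of Cyp2f2 and Glul in 1 cell asks whether markers of opposite ends of the lobule meet under 1 barcode. A cell was high for a gene above the comparison cells' 75th percentile at 25000 UMIs, which was 5 UMIs of Cyp2f2 and 1 of Glul in Tom- and 2 of each in Tom+, so that the Glul limits lie close to a single molecule. In Tom- 4 of 360 high-UMI cells were high for both, 1.11% (0.304 to 2.82), against 65 comparison cells or 0.915% (0.707 to 1.17), and the intervals overlap. In Tom+ 47 of 1239 were high for both, 3.79% (2.80 to 5.01), against 77 comparison cells or 1.46% (1.16 to 1.83), and the intervals do not overlap. Both shares were below the product of the shares of the single genes, which was 2.28% in Tom- and 5.80% in Tom+ high-UMI cells and 3.31% and 5.18% in comparison cells. The share with both was 0.488 and 0.654 of the product in high-UMI cells, and 0.276 and 0.283 in comparison cells. Of single genes, 6.67% of Tom- and 16.7% of Tom+ high-UMI cells were high for Glul and 34.2% and 34.7% for Cyp2f2.

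Under a stricter limit few cells carried both genes. Above the 90th percentile, none of the 360 Tom- high-UMI cells was high for both, which allows a share of up to 1.02% (exact interval), and 3 of 1239 Tom+ high-UMI cells were, 0.242% (0.0500 to 0.706). Among comparison cells these numbers were 4 of 7101 and 0 of 5261, the latter allowing up to 0.0701%. Both genes were also counted in leukocyte-rich barcodes, which held Glul at 123 CPM in Tom- and 145.5 CPM in Tom+ and Cyp2f2 at 86.7 and 59.7 CPM. Thinned to 10000 UMIs, the Tom+ share with both was 2.02% (1.31 to 2.96) against 1.08% (0.822 to 1.40) in comparison cells, where the intervals overlap, and the Tom- share was 1.67% against 1.94%.

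Mitosis genes were at low levels in both kinds of cells. Of 19 mitosis genes none reached 10 CPM in either library, so that none was tested for fold. Summed, they were at 34.1 CPM (32.4 to 35.8) against 29.8 CPM in Tom- and at 33.8 CPM (32.9 to 34.7) against 26.7 CPM in Tom+, log2 ratios of 0.19 (0.11 to 0.27) and 0.34 (0.29 to 0.39). The Tom- sum was at 27.5 CPM in the 242 cells of the lower step above 100000 UMIs, below comparison cells. It was at 43.4 CPM in the 118 cells of the upper step. Tom- cells of 75000 to 100000 UMIs had 34.9 CPM. In Tom+ the lower and upper steps had 37.2 and 31.5 CPM, and cells of 75000 to 100000 UMIs 26.6 CPM. Mki67, a marker of dividing cells, was at 3.395 against 2.63 CPM and at 3.10 against 2.05 CPM. Top2a, the topoisomerase of chromosome separation, was at 3.44 against 2.39 CPM and at 2.76 against 1.93 CPM. Ccnb2, a mitotic cyclin, was at 2.89 against 3.42 CPM and at 2.93 against 3.27 CPM. Kif23 and Tpx2, which act on the spindle, had log2 ratios of 0.93 and 0.58 in Tom- and 0.71 and 0.85 in Tom+.

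The median cell held no mitosis UMI after thinning. At 25000 UMIs, at least 5 mitosis UMIs were present in 3.89% (2.14 to 6.44) of Tom- high-UMI cells against 1.93% (1.62 to 2.28) of comparison cells, and in 3.07% (2.18 to 4.19) against 1.502% (1.19 to 1.87) in Tom+. At this limit the intervals overlap in Tom- and do not in Tom+. Above the comparison cells' 90th percentile lay 8.61% (5.93 to 12.0) against 3.90% (3.46 to 4.38) in Tom-, where the intervals do not overlap, and 11.2% (9.51 to 13.1) against 9.29% (8.52 to 10.1) in Tom+, where they do. That percentile was 2 UMIs in Tom- and 1 UMI in Tom+, so that these limits differ and lie close to a single molecule. The comparison cells' shares above it were set by that choice and by ties. Above the 99th percentile lay 1.67% (0.614 to 3.59) against 1.00% (0.782 to 1.26) in Tom- and 1.61% (0.989 to 2.48) against 0.874% (0.641 to 1.16) in Tom+, with overlapping intervals in both. Above 150000 UMIs the list's log2 ratio was 0.79 in Tom- and 0.09 in Tom+. Without cells holding 5 or more UMIs of another lineage, which left 60 Tom- and 356 Tom+ high-UMI cells, it was -0.35 and -0.31. Against all other cells within the study's limits it was -0.06 in Tom-, so that its sign depended on the cells compared.

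DNA replication genes as a list were lower in high-UMI cells. The list of 19 was at 157 against 201 CPM in Tom- and 181 against 216 CPM in Tom+, and the median log2 ratio of its 5 tested genes was -0.31 and -0.18. Tk1, a thymidine kinase, gave 33.4% and 35.5% of the list's UMIs in comparison cells and was at 41.6 against 66.9 CPM and at 55.8 against 76.7 CPM. Without Tk1 the list had log2 ratios of -0.21 and -0.16. In Tom- the list fell below the limit as well, from 201 CPM to 175 and 161, and was at 158 and 156 CPM in the steps above it. In Tom+ it went from 216 to 205 and 195 CPM in the steps below the limit. Mcm7, a subunit of the replicative helicase, was at 24.7 against 24.0 CPM and 22.3 against 24.6 CPM. Pcna, the replication clamp, was at 20.6 against 25.7 CPM and 23.8 against 27.3 CPM. At least 5 UMIs of the list were present in 31.4% against 51.8% of thinned Tom- cells and 45.6% against 58.6% of Tom+ cells.

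Genes that control cytokinesis and ploidy were at 32.0 against 46.5 CPM in Tom- and 43.3 against 51.9 CPM in Tom+ as a list of 11. Cells of 75000 to 100000 UMIs had this list at 34.7 CPM in Tom- and 45.4 CPM in Tom+. The members of the list differed. Anln, Racgap1, Ect2, Cep55, Prc1 and Kif20a, which act in cleavage of the cell, had log2 ratios of -0.04, 0.24, 0.44, 1.08, 0.34 and 0.09 in Tom- and 0.56, 0.56, 0.19, 1.01, 1.00 and 0.51 in Tom+, all at under 4 CPM, and in Tom- the intervals of Anln, Racgap1, Prc1 and Kif20a included 0. Cit, a kinase of the cleavage furrow, had -0.36 and -0.41, with intervals that included 0. The atypical E2F genes E2f7 and E2f8, which favour polyploidy in hepatocytes, had -0.84 and -0.65 in Tom- and -0.61 and -0.49 in Tom+. Lats2 (-0.80 and -0.36), a kinase of the Hippo pathway that restrains tetraploid cells, and Pidd1 (-0.53 and -0.43), which senses extra centrosomes, were lower as well. Among G1 genes Cdkn1a, which encodes p21, was at 95.3 against 104 CPM and at 88.3 against 83.8 CPM. Cdkn2a, which includes p16Ink4a, had 23 UMIs (0.507 CPM) in Tom- and 50 UMIs (0.291 CPM) in Tom+ high-UMI cells. Among high-UMI cells its log2 ratio of Tom+ over Tom- was -0.80 (-1.54 to -0.02). The log2 ratio of Cdkn2a to comparison cells was 0.46 (-0.27 to 1.13) in Tom- and -0.03 (-0.61 to 0.54) in Tom+. A separate p16 feature of the matrices was not used.

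Neither nuclear envelope nor histone genes stood far from the rest. The nuclear envelope list of 15 had log2 ratios of 0.06 and -0.04, with the lamin genes Lmna at 0.10 and 0.14 and Lmnb1 at 0.31 and 0.20, and Lmnb2, at under 10 CPM, at -1.13 and -0.80. The 10 histone genes present in the files had 0.16 and 0.09. At equal depth high-UMI cells held slightly fewer genes, with medians of 4938 (quartiles 4819 and 5077) against 5041 (4842 and 5256) in Tom- and 5034 (4881 and 5198) against 5110 (4915 and 5326) in Tom+. The 50 most abundant genes took 37.2% against 35.3% of their UMIs in Tom- and 36.0% against 34.0% in Tom+.

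Differences were small for other functional lists. Ribosome biogenesis genes had -0.21 and -0.20, p53 targets -0.16 and -0.21, and the immediate early genes -0.04 and -0.14, with the phosphatase gene Dusp1 at -0.88 and -0.67. Secretory pathway genes had 0.15 and 0.12, interferon genes 0.15 and 0.14, and plasma proteins 0.07 and 0.09. Heat shock genes had -0.12 and -0.03, circadian genes -0.02 and -0.14, and transport and junction genes 0.02 and 0.02.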

How the data were processed

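Per the labels and the study's methods, the authors counted UMIs with Cell Ranger 7.2.0 (mm10) from probe pairs hybridised to fixed cells, with tdTomato probes added. The deposited matrices hold raw counts per gene and barcode, not normalised, in 1 library per group.

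Counts were summed over high-UMI cells (more than 100000 UMIs) and comparison cells (25000 to 50000), both at most 5% mitochondrial. The sums were scaled to CPM and given exact Poisson intervals. Log2 ratios of single genes and lists have exact conditional intervals. No statistical test was run, and tested genes are those compared for fold (1.5), at 10 CPM in either sum and 20 UMIs over both, with a pseudocount of 0.5 UMIs. Named genes are the 8 highest and 8 lowest, ranked by the ratio nearer 0 of both libraries, plus zone, lineage, reporter and list genes. Cells were thinned without replacement to 25000 UMIs, and shares have Clopper-Pearson intervals at 95%. Doublets were not called or removed. Depth sets the precision: the 2 libraries held 681279005 (Tom-) and 715333889 (Tom+) UMIs. The cells and the 32 gene lists were chosen with earlier results of these data known. Of 24 histone names listed, 10 were in the files. Gene positions are from GENCODE vM21 (mm10). Scripts used Python 3.11.15, numpy 2.4.6, scipy 1.17.1 and pandas 2.3.3, and the fold counts and the thinning were tested on simulated data. Alternatives covered comparison cells, limits, weights, scaling and thinning depth. Leaving out cells above the 90th percentile of another lineage, barcodes shared by both libraries and cells over 10000 genes was added after seeing the data.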

Additional observations from a re-analysis of the deposited data

Results flagged for a closer look

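Some lists and genes lay on opposite sides of 0 in the libraries, with counting intervals that exclude 0 in each, and the difference between libraries was not tested. The fatty acid synthesis list had a log2 ratio of high-UMI over comparison cells of -0.051 in Tom- and 0.19 in Tom+, where Scd1, the desaturase that makes oleate, was at 2317 against 2372 CPM in Tom- and 2673 against 1995 CPM in Tom+. The drug-metabolising P450 list had 0.095 and -0.0045, the nuclear envelope list 0.055 and -0.038, the cholesterol synthesis list -0.024 and 0.042, and the urea and amino acid list -0.0080 and 0.036. With median-of-ratios scaling, the P450 list turned to 0.059 and the nuclear envelope list to 0.026 in Tom+. In Tom- the cholesterol list turned to 0.024 and the urea list to 0.040 with this scaling. Each of these lists also changed sign under other alternatives. Sds had -0.065 in Tom- and 0.19 in Tom+, and 0.0097 in Tom- with comparison cells weighted to the zone makeup of the high-UMI cells. Cyp2e1 had 0.088 in Tom- and -0.13 in Tom+, and 0.10 in Tom+ with comparison cells weighted to the same zone makeup.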

How the results depend on the processing

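The 1.5-fold counts depended on the choice of cells and limits. Higher genes in Tom- (6) and Tom+ (23) numbered 1 and 2 at a minimum of 50 CPM, 431 and 479 with no CPM minimum, and 0 and 0 at 2-fold. They numbered 0 and 3 against cells of 50000 to 75000 UMIs and 0 and 0 against all other cells within the study's limits. They numbered 17 and 39 above 150000 UMIs, 21 and 5 without cells holding 5 or more UMIs of another lineage, and 19 and 39 with median-of-ratios scaling. They were 11 in Tom- with single-cell means, 52 in Tom- without cells over the 90th percentile of another lineage, and 15 in Tom+ with zone weights. Lower genes (705 and 364) numbered 207 and 113 at 50 CPM, 1563 and 850 with no minimum, 203 and 49 at 2-fold and 85 and 62 against cells of 50000 to 75000 UMIs, and 181 in Tom+ against all other cells.

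The macrophage ratio (0.36 and 0.44) stayed above 0 in all alternatives run: 0.33 in Tom- against cells of 50000 to 75000 UMIs, 0.060 and 0.31 against all other cells, 0.087 and 0.49 above 150000 UMIs, 0.28 and 0.40 with zone weights, 0.28 and 0.10 without cells of 5 or more other-lineage UMIs, 0.40 and 0.50 with median-of-ratios scaling, 0.67 and 0.49 without cells over the 90th percentile, 0.38 in Tom- with single-cell means, 0.46 in Tom+ without shared barcodes and 0.42 in Tom+ without cells over 10000 genes. The mitosis ratio (0.19 and 0.34) was -0.059 and 0.24 against all other cells, 0.79 and 0.088 above 150000 UMIs, 0.083 in Tom- with single-cell means, 0.091 and 0.27 with zone weights, -0.35 and -0.31 without cells of 5 or more other-lineage UMIs, 0.44 and 0.47 without cells over the 90th percentile, and 0.40 in Tom+ with median-of-ratios scaling. The exclusions by other-lineage UMIs chose cells by lists that include the macrophage, other leukocyte and erythroid lists. For those lists the resulting ratios rest on the same genes. The causes were not tested.

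The Tom+ share of high-UMI cells (7.58%) was 1.87% at the limit scaled to depth. The share with Cyp2f2 and Glul (1.11% and 3.79%) was 0% and 0.242% at the 90th percentile, 0% in Tom- without cells of 5 or more other-lineage UMIs, and 2.02% in Tom+ at 10000 UMIs. The middle share of the zone axis in Tom- (73.3%) was 68.3% without cells of 5 or more other-lineage UMIs. The difference in detected genes (-2.05% and -1.49%) was -2.52% and -2.05% at 10000 UMIs. The erythroid list in Tom- (-0.81) turned to 0.029 without cells over the 90th percentile. Of 1210 alternative values for the other lists and named genes, 649 stayed within the counting interval of the reported value, 560 moved outside it and 1, the erythroid list named here, turned its sign from a value past 1.5-fold. Of all of them, 37 changed sign from a main value whose interval excluded 0. No paired analysis was possible because 1 library stands for each group.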
